A study of Mus musculus with 8 samples.

Results

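The nuclear genes of oxidative phosphorylation were examined in mouse cerebral cortex as a group of 97 genes among the 55416 genes of the count table. They were chosen by name: protein-coding genes whose symbol begins with Nduf, Uqcr, Cox4 to Cox8 or Atp5, together with Sdha, Sdhb, Sdhc and Sdhd. The names cover complex I with its Ndufaf assembly factors, complexes II, III and IV, and the ATP synthase (complex V). They leave out Cyc1, the cytochrome c1 subunit of complex III, which is reported below with the other lists. The 97 genes carry 96 distinct symbols, because Atp5o is listed under 2 identifiers. Of the 97, 95 had at least 1 count, 93 received an adjusted p, and 92 averaged at least 10 normalized counts (a normalized count is a count divided by the library's size factor). The other 5 were Cox7b2, Cox8b, Cox8c, Ndufb11b and the second Atp5o copy.

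The libraries were made from the cerebral cortex of mice that carry 1 knock-in allele of Ago2 with the L192P substitution (AGO2_L192P/+, written L192P, n = 4) and of wild-type mice (WT, n = 4). L192P is numbered on the human protein, and the allele was introduced into C57BL/6JUke embryos with CRISPR/Cas9, with founders crossed to wild-type C57/Bl6 mice. Both groups were otherwise untreated as far as the labels say, which give neither the age nor the sex of the animals. According to the study, heterozygous pups were fewer among live births than Mendelian inheritance would give, so the sampled L192P mice are survivors.

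Oxidative phosphorylation moves electrons from NADH and succinate through complexes I to IV to oxygen, and the ATP synthase uses the resulting proton gradient to make ATP. Most of its subunits are encoded in the nucleus, translated in the cytosol and imported, and a small set of core subunits is encoded by mitochondrial DNA. Neurons depend heavily on this pathway, and several subunits of complex IV have isoforms restricted to particular tissues or cell types.

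Argonaute 2, the protein made from Ago2, is guided by a miRNA to sites in mRNA 3′ UTRs, so seed sites in these genes were described first. The seed (bases 2 to 8 of the miRNA) is shown in capitals in the mature sequences below, from the RefSeq table of GRCm38.p6. They are shown because they define the sites searched for.
let-7a-5p: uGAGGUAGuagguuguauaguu
miR-9-5p: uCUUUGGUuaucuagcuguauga
miR-128-3p: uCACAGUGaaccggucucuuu
miR-181a-5p: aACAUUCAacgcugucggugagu
miR-26a-5p: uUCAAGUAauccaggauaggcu
miR-29a-3p: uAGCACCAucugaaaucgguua
miR-92a-3p: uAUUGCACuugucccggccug
miR-5121: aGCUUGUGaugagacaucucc
No seed was shared between the 8 miRNAs. miR-124, which the study describes as enriched in neurons, was not among them, and its sites were not searched.

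The 3′ UTRs of oxidative phosphorylation genes were short. Their median length in the canonical transcript was 236 bases (range 18 to 6186, 92 genes), against 1393 bases over 14377 expressed protein-coding genes. Of the 92 genes, 69 (75.0%) held no 7-base match to any of the 8 seeds, against 39.0% of the expressed protein-coding genes. miR-128-3p sites were the most frequent, in 9 of 92 genes (9.78%, against 24.9% of all), and let-7a-5p sites were in 2 (2.17%, against 11.7%), Cox7b and Ndufa10. Sites of miR-29a-3p were in 7 (7.61%, against 16.9%) and of miR-92a-3p in 4 (4.35%, against 8.26%), namely Atp5j, Ndufa10, Ndufa5 and Uqcrfs1. No adjustment for 3′ UTR length was made in these shares.

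Sdhb, the iron-sulfur subunit of succinate dehydrogenase, and Ndufaf1, a complex I assembly factor, held sites of 4 of the 8 miRNAs, the highest number among the 92 genes. Sites of 3 of these miRNAs in Sdhb are printed because this gene returns below among those whose groups did not overlap. They lie in its 3′ UTR on the plus strand of chromosome 4 (GRCm39), and capitals mark the match to the seed.
Sdhb miR-9-5p site, chr4:140706515-140706544: tctccattattACCAAAGacggttggaacc
Sdhb miR-181a-5p site, chr4:140707095-140707124: catttgtttccTGAATGTttgaccgatcta
Sdhb miR-29a-3p site, chr4:140707413-140707442: cagtgatcaccTGGTGCTtgccaggcagcc
Cox5a, another gene of that set, held a single site, of miR-26a-5p, on the plus strand of chromosome 9.
Cox5a miR-26a-5p site, chr9:57439585-57439614: actgctattgcTACTTGAttgaaacagttg
Ndufs3, Ndufb6, Cox4i2 and Atp5h, the rest of that set, held no site of the 8 miRNAs. The median log2 fold change of L192P against WT was -0.038 over the 23 genes with a site. It was -0.042 over the 69 genes without one, and the difference was not tested. A seed match is a description of the sequence and does not show that a site is bound.

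**Figure D1:**
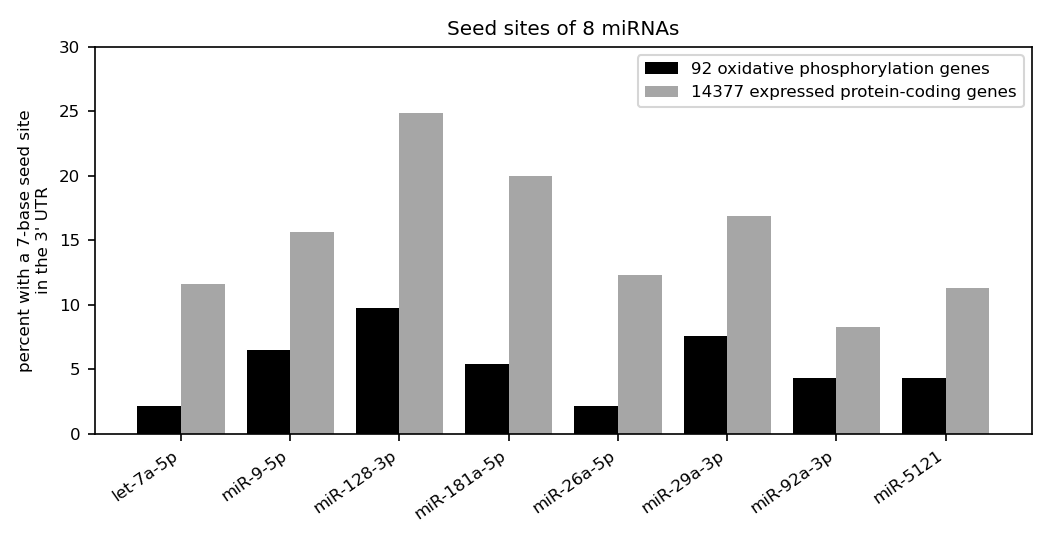
Percent of 3′ UTRs (y axis) that held a 7-base seed site of each of 8 miRNAs (x axis), for 92 oxidative phosphorylation genes (black bars) and 14377 expressed protein-coding genes (grey bars). The black bar is the lower of each pair, from 2.17% for let-7a-5p and miR-26a-5p to 9.78% for miR-128-3p.

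None of the 93 tested oxidative phosphorylation genes was called different between L192P and WT cortex at an adjusted p under 0.05 (DESeq2, Benjamini-Hochberg over 18627 genes). Over all tested genes 253 were called, or 1.36%, with 0.789% higher and 0.569% lower in L192P. Unadjusted p-values under 0.05 were found for 2 genes, Ndufs3 and Cox4i2, both with lower values in L192P. Over all tested genes 4.49% had such a p with a lower value in L192P, and 9.44% had one in either direction. The replicate number was also fitted as a block, because same-numbered libraries correlated. With it 4.25% of all tested genes were called and again 0 of the oxidative phosphorylation genes, of which 88 then had an adjusted p. In that fit 6 had an unadjusted p under 0.05, all with lower values in L192P (7.59% of all tested genes in that direction): Ndufs3, Uqcr10, Cox4i1, Cox6a1, Cox8a and Atp5h. edgeR and limma-voom also called 0, with 2 genes each at an unadjusted p under 0.05. The labels do not say that replicates are separate animals, so p-values measure the spread between these libraries. In cortex as bulk tissue, fewer cells of a type and less RNA per cell cannot be told apart.

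The estimates were small and mostly on the negative side. The median log2 fold change of the 92 genes was -0.039, against 0.0014 over all genes that averaged at least 10 normalized counts, and 74 of 92 (80.4%) were negative, against 49.5% of all genes. With total-count scaling 56 of 92 were negative, at a median of -0.015 where the median of all genes was 0.026. Leaving out 1 library gave medians from -0.064 (without L192P replicate 4) to -0.019 (without L192P replicate 1 or 2), with -0.062 without L192P replicate 3, and leaving out the replicate 1 pair gave -0.014, with 53 of 92 negative. Related gene lists held negative log2 fold changes as well, in 18 of 20 entries of glycolysis and lactate handling (median -0.05). So did 52 of 77 mitochondrial ribosomal genes, 13 of 18 regulators of respiratory genes and 12 of 21 citric acid cycle genes. Among cytosolic ribosomal protein genes 20 of 79 were negative, and among mitochondrially encoded subunits 2 of 13. Cell type markers also differed in sign by list. Log2 fold changes were negative for 4 of 5 neuron markers (median -0.09) and all 5 oligodendrocyte markers (median -0.12). They were positive for all 5 microglia markers (median 0.23), all 5 endothelial markers (median 0.33, median SE 0.52) and 4 of 5 erythroid markers (median 0.25). The other marker lists held both signs. None of the neuron, microglia and endothelial markers was called without the replicate block. With it Slc17a7 (log2 fold change -0.13, adjusted p = 0.0431), Cx3cr1 (0.33, adjusted p = 0.0416) and Slco1a4 (0.54, adjusted p = 0.0279) were, fold changes being those without the block. Their part in the estimates of the oxidative phosphorylation genes was not tested. The median was -0.04 in complex I (37 genes), -0.04 in its assembly factors (8), -0.04 in complex II (4), -0.02 in complex III (8), -0.07 in complex IV (18) and -0.02 in complex V (17). These genes share libraries and are not independent observations, so no test was made over them.

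The 95% intervals bounded most of the differences closely. For 69 of the 92 genes the interval lay within 0.25 log2 units of 0, a 1.19-fold change in either direction, and for 81 it lay within 0.3. For 91 it lay within 1 log2 unit, a 2.0-fold change, the exception being Cox4i2. The 11 genes whose interval went beyond 0.3 were Ndufaf6, Ndufaf8, Uqcr10, Cox4i2, Cox5b-ps, Cox6a2, Cox6b2, Cox7a1, Ndufa4l2, Atp5k and Atp5l.

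**Figure D2:**
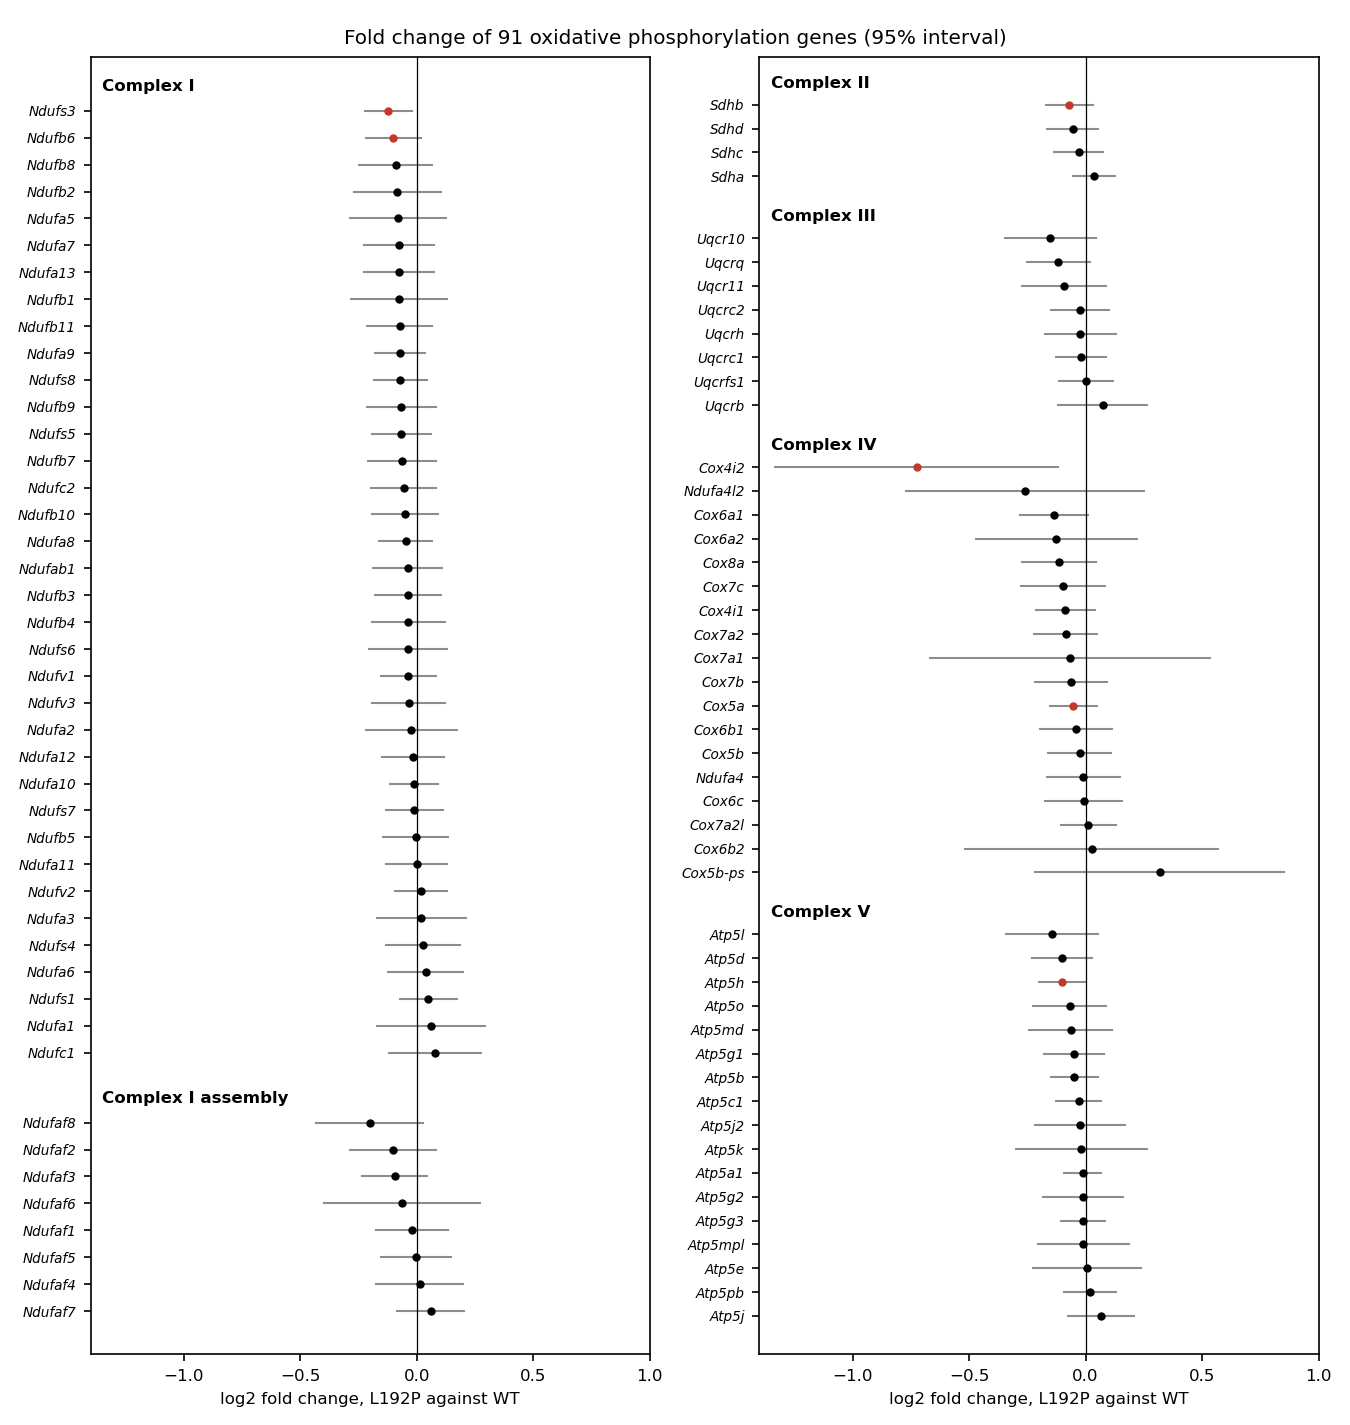
Log2 fold change of L192P against WT (x axis) of 91 of the 92 oxidative phosphorylation genes (rows, grouped by complex); points are DESeq2 estimates, bars their 95% intervals, and red points the 6 genes whose 4 L192P values all lay below their 4 WT values. Estimates gather just left of 0, and Cox4i2 has the lowest, at -0.72.

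In 6 genes all 4 L192P libraries lay below all 4 WT libraries, and in none did they lie above. Over all tested genes 2.96% had that order with L192P lower and 3.01% with L192P higher. The 6 were Ndufs3, Ndufb6, Sdhb, Cox4i2, Cox5a and Atp5h. Cox5a was singled out after its values were seen.

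Ndufs3 encodes a core subunit of complex I in the arm that takes electrons from NADH (ENSMUSG00000005510, chr2:90724969-90735284, GRCm39, minus strand). Its normalized counts were 2916, 2889, 3000 and 2792 in L192P replicates 1 to 4 and 3142, 3172, 3213 and 3096 in WT replicates 1 to 4. The groups were separate, and the highest L192P value was below the lowest WT value. The log2 fold change was -0.12 (SE 0.05, 95% interval -0.22 to -0.02), with an unadjusted p of 0.0166 and an adjusted p of 0.327 (DESeq2). Ndufs3 shares exon positions with Kbtbd4 on the opposite strand, and whether reads were counted by strand is not given in the sources used here.

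Cox4i2 encodes the isoform of complex IV subunit 4 found mainly in lung and in vascular mural cells (ENSMUSG00000009876, chr2:152595625-152606959, GRCm39, plus strand). It was near the lower end of measurement, with normalized counts of 14.9, 28.4, 25.4 and 25.2 in L192P and 38.2, 32.2, 38.0 and 46.8 in WT. Replicate 1 was the lowest of the L192P libraries, and the groups did not overlap. The log2 fold change was -0.72 (SE 0.31, 95% interval -1.33 to -0.12), with an unadjusted p of 0.0192 and an adjusted p of 0.345 (DESeq2). The 6 mural cell markers summed to 1516 to 3008 normalized counts in L192P and 1735 to 2901 in WT, none of them was called, and their part in the Cox4i2 values was not tested. Ndufa4l2, another complex IV gene known from mural cells, had 30.8, 60.3, 48.4 and 58.7 in L192P and 51.0, 67.2, 47.8 and 69.1 in WT, and its groups overlapped (log2 fold change -0.26, SE 0.26, adjusted p = 0.879).

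Atp5h, now named Atp5pd, encodes a subunit of the stalk that holds the ATP synthase head in place (ENSMUSG00000034566, chr11:115305263-115311342, GRCm39, minus strand). Its normalized counts were 4738, 4575, 4916 and 5049 in L192P and 5218, 5178, 5187 and 5075 in WT. The L192P replicate 4 value came close to the lowest WT value, while the WT libraries were tightly grouped. The log2 fold change was -0.10 (SE 0.05, adjusted p = 0.538, DESeq2), and with the replicate block the adjusted p was 0.311.

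Sdhb had 3370, 3374, 3370 and 3225 normalized counts in L192P and 3617, 3538, 3463 and 3382 in WT. Its groups were separated by a margin of a few counts, between L192P replicate 2 and WT replicate 4. The log2 fold change was -0.07 (SE 0.05, adjusted p = 0.768, DESeq2). Ndufb6, a supernumerary subunit of complex I, had 1507, 1397, 1470 and 1495 in L192P and 1634, 1525, 1560 and 1583 in WT (log2 fold change -0.10, SE 0.06, adjusted p = 0.652). Cox5a, a complex IV subunit present in all tissues, had 2429, 2350, 2478 and 2478 in L192P and 2559, 2496, 2543 and 2499 in WT (log2 fold change -0.05, SE 0.05, adjusted p = 0.875). In each of these genes the separation was narrow next to the spread within a group. Sdhb, Ndufb6, Cox5a and Atp5h also share exon positions with genes annotated on the opposite strand, as do 61 of the 97 genes in all.

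**Figure D3:**
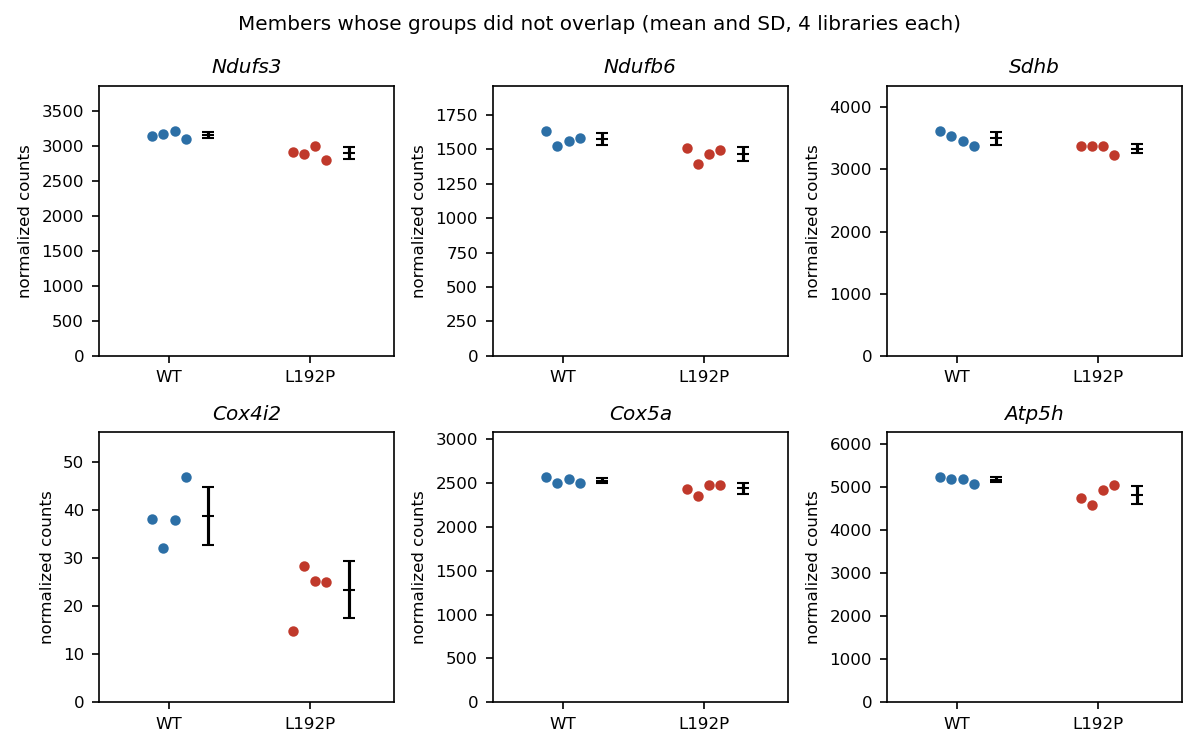
Normalized counts (y axis, from 0) of the 6 genes whose groups did not overlap, by genotype (x axis, WT blue and L192P red), one point per library in replicate order, with mean and SD (n = 4) beside them. Apart from Cox4i2, whose counts are below 50, the distances between groups are small next to the levels.

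Complex I takes in electrons from NADH. Among its 37 genes with a mean of at least 10, log2 fold changes ran from -0.12 (Ndufs3) to 0.08 (Ndufc1), and 30 were negative. Of the other core subunits, which include those that carry the flavin and iron-sulfur groups, 5 had log2 fold changes of 0.05 (Ndufs1), -0.01 (Ndufs7), -0.07 (Ndufs8), -0.04 (Ndufv1) and 0.02 (Ndufv2). Relative to canonical transcript length the gene with the highest level was Ndufb10, a supernumerary subunit, at 4581 normalized counts per kb. Its libraries had 3010, 3082, 3653 and 3432 normalized counts in L192P and 3551, 3455, 3288 and 3356 in WT, so the L192P values lay on both sides of the WT range (log2 fold change -0.05, SE 0.07, adjusted p = 0.934).

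The Ndufaf genes encode proteins that help build complex I and are not part of the finished enzyme. Ndufaf8 had the lowest estimate of the 8, with 240, 267, 278 and 331 normalized counts in L192P and 333, 308, 329 and 310 in WT. L192P replicates 1 to 3 were low and replicate 4 was within the WT range (log2 fold change -0.20, SE 0.12, adjusted p = 0.633). Ndufaf3 had a log2 fold change of -0.10 (SE 0.07, adjusted p = 0.785), and Ndufaf2, the highest per kb at 737, had one of -0.10 (SE 0.09, adjusted p = 0.856). Levels per kb of canonical transcript ran from 136 (Ndufaf1) to 737 among the assembly factors and from 105 (Ndufb2) to 4581 among the complex I subunits.

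Complex II, succinate dehydrogenase, is the one complex whose subunits are all nuclear. Sdha, its flavoprotein, was the highest per kb at 3787, with a log2 fold change of 0.04 (SE 0.05, adjusted p = 0.927), the one positive estimate among the 4. Sdhd, a membrane anchor, had one of -0.06 (SE 0.06, adjusted p = 0.878).

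Complex III passes electrons to cytochrome c. Uqcr10, one of its small subunits, had 1313, 1446, 1771 and 1778 normalized counts in L192P and 1820, 1630, 1847 and 1706 in WT. Its first 2 L192P libraries were below every WT library and the other 2 were not (log2 fold change -0.15, SE 0.10, adjusted p = 0.716). Uqcrq, another small subunit, had 2562 and 2785 in L192P replicates 1 and 2, 3092 and 3040 in replicates 3 and 4, and 3062 to 3170 in WT, so that its groups overlapped through L192P replicate 3 (log2 fold change -0.12, SE 0.07, adjusted p = 0.651). The core proteins Uqcrc1, Uqcrc2 and the Rieske protein Uqcrfs1 had log2 fold changes of -0.02, -0.02 and 0.0034. Uqcrc1 had the highest level per kb, 4092. Divided by the length of all annotated exons instead, the highest gene was Uqcrb in complex III, Cox6a1 in complex IV and Ndufaf3 among the assembly factors, and was unchanged in complexes I, II and V.

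Complex IV, cytochrome c oxidase, reduces oxygen. Cox4i1, the general form of subunit 4, was its highest gene per kb of canonical transcript, at 20394, with 14384, 15280, 16608 and 15660 normalized counts in L192P and 15225, 17615, 16555 and 16423 in WT. These ranges overlapped (log2 fold change -0.09, SE 0.06, adjusted p = 0.772). Cox6a1 had 4812, 5435, 5583 and 5590 in L192P and 5249, 6211, 6141 and 5917 in WT. In each same-numbered pair the L192P library had the lower value, and the groups overlapped through WT replicate 1 (log2 fold change -0.14, SE 0.07, adjusted p = 0.584). With the replicate block its adjusted p was 0.0636, the lowest of any oxidative phosphorylation gene under any of the 17 alternative settings.

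Several complex IV subunits and the c ring of the ATP synthase come in isoforms, and the general form held nearly all counts in most sets. In the shares below, including those of the next paragraph, counts are normalized counts divided by canonical transcript length. Each share is of their sum over an isoform set. Cox4i2 made up 0.155% ± 0.035 (SD, n = 4) of Cox4i counts in L192P and 0.244% ± 0.044 in WT. Cox6a2, the form of heart, skeletal muscle and parvalbumin interneurons, made up 1.83% ± 0.25 in L192P and 1.83% ± 0.36 in WT. The fitted log2 fold change of Cox6a2 was -0.13 (SE 0.18, adjusted p = 0.935), and Pvalb, the marker that defines those interneurons, had one of -0.22 (SE 0.07, adjusted p = 0.121). Under the replicate block the adjusted p of Pvalb was 0.00907 and that of Cox6a2 was 0.890. Of the 5 markers listed for these interneurons, 3 had negative log2 fold changes and 2 positive ones (Kcnc1 0.05 and Syt2 0.02). Their median was -0.07, and Pvalb was the only marker of the 5 called with the block.

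For Cox6b, Cox7a and the c ring the shares in L192P and WT lay within 1 SD of each other. Cox6b2, known from testis, made up 1.37% ± 0.37 of Cox6b counts in L192P and 1.32% ± 0.15 in WT, and Cox7a1, the muscle form, 1.12% ± 0.12 and 1.14% ± 0.33 of Cox7a counts. Cox7a2 and Cox7a2l, the latter a factor in supercomplex formation, took 57.7% ± 1.8 and 41.2% ± 1.9 in L192P and 59.4% ± 1.8 and 39.5% ± 1.7 in WT. Of the c-ring genes, which encode the same mature protein, Atp5g3 took 48.5% ± 1.2 in L192P and 48.0% ± 1.3 in WT, Atp5g1 38.7% ± 0.8 and 39.3% ± 0.9, and Atp5g2 12.8% ± 0.6 and 12.7% ± 0.6. Cox8b, a muscle form, had 3.74 to 9.58 normalized counts in L192P and 5.85 to 17.5 in WT (log2 fold change -1.14, SE 0.62, adjusted p = 0.575), or 0.0237% ± 0.0103 and 0.0481% ± 0.0215 of Cox8 counts. Cox7b2 had 1.15 to 5.61 and 2.34 to 9.11, or 0.0492% ± 0.0327 and 0.0858% ± 0.0396 of Cox7b counts, and Cox8c had no count in any library, which allows up to 3 counts per library. Log2 fold changes of the general forms not given above were -0.04 (Cox6b1), -0.08 (Cox7a2), 0.01 (Cox7a2l), -0.06 (Cox7b), -0.12 (Cox8a) and -0.01 (Ndufa4), with intervals that all included 0.

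In complex V, the ATP synthase, the highest gene per kb was Atp5b, which encodes the catalytic beta subunit. It had 34146, 36827, 36180 and 34678 in L192P and 34756, 38230, 36704 and 36939 in WT, and its level was 18721 normalized counts per kb. The ranges overlapped in part (log2 fold change -0.05, SE 0.05, 95% interval -0.15 to 0.05, adjusted p = 0.895). Atp5a1, the alpha subunit, had a log2 fold change of -0.01 (SE 0.04, adjusted p = 0.984). Atp5d, the delta subunit of the central stalk, had one of -0.10 (SE 0.07, adjusted p = 0.702), with L192P replicate 1 the lowest library at 3966 against 4363 to 4657 in the other L192P libraries and 4608 to 4936 in WT.

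The L192P libraries differed among themselves more than the WT libraries did for these genes. Among 88 oxidative phosphorylation genes that averaged 100 or more normalized counts, the SD of log2 values was larger in L192P for 60 (68.2%), against 51.4% of 11585 other protein-coding genes. The median SD was 0.113 in L192P and 0.0707 in WT, against 0.107 and 0.106 for the other genes. This was read after the values were seen and was not tested.

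The L192P libraries lay farther apart for genes with short transcripts. Among the 25 oxidative phosphorylation genes with a canonical transcript under 700 bases, the median log2 level, centred on each gene's mean, was -0.18, -0.14, 0.05 and 0.13 in L192P replicates 1 to 4 and 0.04, -0.02, 0.07 and -0.02 in WT. L192P replicates 1 and 2 were thus the lowest of the 8 libraries and L192P replicate 4 the highest. The 136 other protein-coding genes of that length also were lowest in L192P replicates 1 and 2 and highest in replicate 4, at -0.11, -0.07, 0.09 and 0.13 in L192P and -0.01 to 0.03 in WT. For the 39 oxidative phosphorylation genes of 1300 bases or more the L192P medians were -0.05, -0.02, 0.002 and 0.03. The length classes were set after the values were seen, and the part of transcript length in the fold changes was not tested. Without L192P replicate 4 the median log2 fold change of the 92 genes was -0.06 and 11 of them had an unadjusted p under 0.05 with lower values in L192P. Without L192P replicate 1 the median was -0.02 and 1 gene had such a p.

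**Figure D4:**
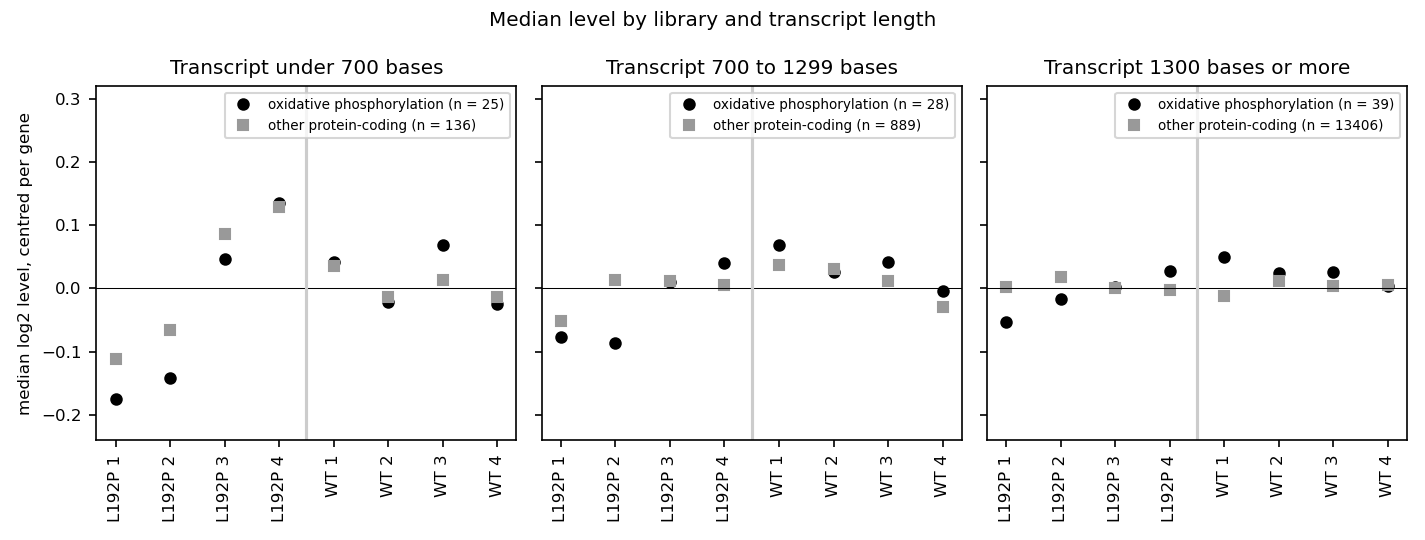
Median log2 level centred per gene (y axis) in each of 8 libraries (x axis) for oxidative phosphorylation genes (black circles) and other protein-coding genes (grey squares), in 3 classes of canonical transcript length. Among transcripts under 700 bases both sets are lowest in L192P replicates 1 and 2 and highest in L192P replicate 4, and the libraries lie closer to 0 among transcripts of 1300 bases or more.

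The nuclear genes took up a steady share of each library. Their counts made up 1.28% ± 0.04 of all counts in L192P and 1.29% ± 0.03 in WT (SD, n = 4), with single libraries between 1.24% and 1.32%. The 13 mitochondrially encoded subunit genes, whose products join the same complexes, made up 1.40% ± 0.48 and 1.33% ± 0.32. They ranged from 0.715% in L192P replicate 1 to 1.79% in L192P replicate 3, and 0 of the 13 were called (log2 fold changes -0.04 to 0.40).

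**Figure D5:**
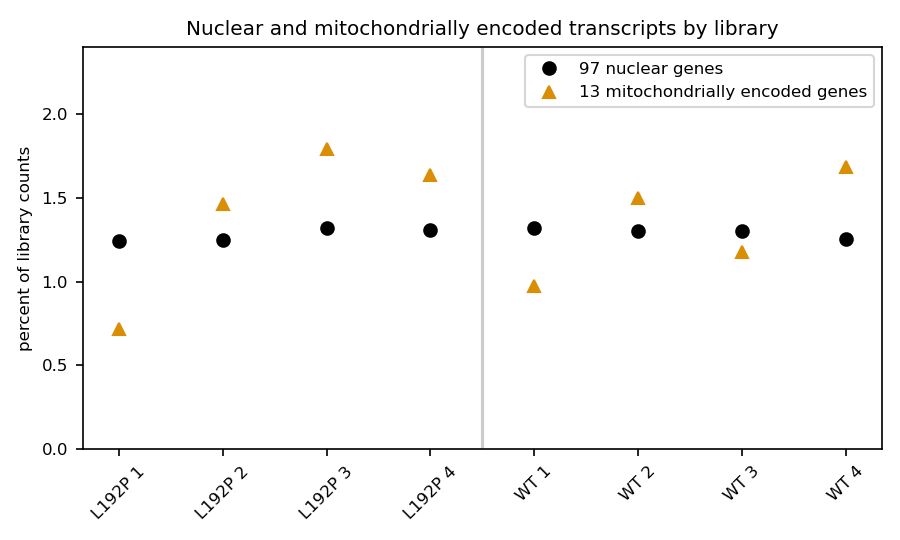
Percent of all library counts (y axis, from 0) from 97 nuclear oxidative phosphorylation genes (black circles) and 13 mitochondrially encoded subunit genes (orange triangles) in each library (x axis). The nuclear share stays between 1.24% and 1.32% while the mitochondrially encoded share runs from 0.715% to 1.79%.

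Other lists of the pathway also held no called gene. Cytochrome c1 (Cyc1) and cytochrome c (Cycs) had log2 fold changes of -0.03 and -0.04. Of 49 tested assembly factors outside the naming rule 0 were called, and the lowest adjusted p was 0.164, for Uqcc4. Of 18 regulators of respiratory genes 0 were called, with log2 fold changes of 0.01 for the coactivator Ppargc1a, -0.05 for Nrf1, 0.08 for Gabpa, -0.07 for Esrra, -0.03 for Tfam and -0.0046 for Yy1. Of 21 genes of the citric acid cycle and pyruvate entry and of 20 table entries of glycolysis and lactate handling 0 were called, although Ldha, which interconverts pyruvate and lactate, had an adjusted p of 0.281 without and 0.0165 with the replicate block.

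Promoters from 250 bases before to 50 bases after the GENCODE start site were searched on both strands for letters of 4 factors that act on respiratory genes. NRF1 letters (GCATGCG) were in 11 of 92 (11.96%, against 5.75% of 14523 promoters of the same length), ETS letters bound by GABPA (CCGGAAG) in 16 (17.4%, against 13.6%), YY1 letters (AAGATGG) in 11 (11.96%, against 5.96%) and SP1 letters (GGGCGG) in 39 (42.4%, against 56.2%). None of these letter strings contains another, while the NRF1 letters overlap their own reverse complement. Cox6a1, the gene with the lowest adjusted p under the replicate block, and Sdhb, whose groups did not overlap, both held the NRF1 letters. Their windows are printed with the match, or its reverse complement, in capitals, on the strand of each gene (minus for Cox6a1, plus for Sdhb, GRCm39).
Cox6a1 NRF1 letters, chr5:115487159-115487188: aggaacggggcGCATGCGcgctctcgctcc
Sdhb NRF1 letters, chr4:140688517-140688546: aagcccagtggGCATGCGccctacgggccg
Cox6a1 ETS letters, chr5:115487015-115487044: ccccatttccgCTTCCGGcgcgccggtgta
The NRF1 letters were not in the promoters of Ndufs3, Ndufb6, Cox4i2, Cox5a or Atp5h, whose groups also did not overlap. Nor were they in Uqcr10, Cox4i1 or Cox8a, which like Cox6a1 had an unadjusted p under 0.05 with the replicate block (DESeq2). A match describes the sequence and not binding.

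Library totals ran from 20396357 to 43575900 counts. The replicate 1 libraries of both genotypes stood apart, with Xist at 0.934 and 1.82 normalized counts against 5185 to 7257 in the other 6, with 3547 and 3534 counts on the Y chromosome against 186 to 573, and with the lowest endothelial marker sums (303 in L192P and 380 in WT, against 580 to 1161). Xist is made from the inactive X chromosome of females, and the labels give no sex. Without that pair 0 oxidative phosphorylation genes were called. Neuron markers summed to 159580 to 189081 normalized counts, and skeletal and heart muscle markers to 513 to 591. No gene of the 10 cell type marker lists was called without the replicate block, and with it 4 were, Pvalb and the 3 named above.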

How the data were processed

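Messenger RNA of mouse cerebral cortex was sequenced from stranded poly(A) libraries, 4 per genotype. The deposited values used here are counts per gene, which the authors made with STAR (2.7.9a per the submitters' processing notes) and featureCounts 1.5.1 on GRCm39. The annotation release and the strand setting of the counting are not given in the sources used here. A second deposited table holds the same counts after scaling by size factors, made with DESeq2 1.40.2 per the notes, and was not used.

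DESeq2 1.42.0 in R 4.3.3 was fitted to all genes with a single genotype term. Size factors were medians of ratios, Cook's filter was left at its default, and independent filtering used a level of 0.05. A gene was called where the Benjamini-Hochberg adjusted p was under 0.05, whatever its fold change. Fold changes were not shrunken, and medians used genes that averaged at least 10 normalized counts. The genes and lists were chosen with earlier results of these data known. Genes were named if called, if among the 2 smallest p-values or highest per kb of a complex, or if in an isoform set; genes with non-overlapping groups were added after their values were seen.

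The alternatives were edgeR 4.0.16 (quasi-likelihood) and limma 3.58.1 (voom), both with TMM factors, TMM or total-count factors in DESeq2, a filter of 10 counts in 4 libraries, independent filtering off, the Cook filter off, the replicate number as a block, leaving out the replicate 1 pair, and leaving out each library. Replicates of a genotype differed beyond sampling noise (chi-square per degree of freedom 5.52 to 22.6). The labels do not say what replicate numbers stand for. Over 13422 genes, deviations from group means correlated between same-numbered libraries at 0.63, 0.38, 0.23 and 0.33, and between the 12 other pairs at -0.38 to 0.14, so the numbers were treated as pairing the libraries. Library totals of 20396357 to 43575900 counts leave genes with few counts, such as Cox4i2, with wide intervals.

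Positions, exons and UTRs came from GENCODE M39 on GRCm39, which held 54749 of the 55416 genes and all 97 members. Levels per kb used canonical transcript length. The programs were tested on simulated counts. Values of 1 gene and 1 sequence window are not reported here.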

Additional observations from a re-analysis of the deposited data

Results flagged for a closer look

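In 90 groups of 4 libraries, the gap between the farthest library and its nearest neighbour was compared with the group's range, and 2 groups passed Dixon's 95% value, where chance gives 4.5. For Sdhb in L192P the gap was 0.971 of the range, with replicate 4 at 3225 normalized counts and the other 3 at 3370 to 3374. For the median centred log2 level of complex IV in WT the gap was 0.857 of the range, with replicate 3 at 0.066 and the others at 0.023 to 0.029.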

How the results depend on the processing

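No oxidative phosphorylation gene was called under any of the 17 alternatives. The median log2 fold change of the 92 genes stayed negative, between -0.064 (without L192P replicate 4) and -0.014 (without the replicate 1 pair). The number of called genes over the whole table moved more, from 253 to 53 with edgeR, 45 with limma-voom and 500 without the replicate 1 pair. Leaving out 1 library gave 112 to 496, with 496 without WT replicate 1. The replicate block, used for the pairing, gave 533 calls over the table and changed no oxidative phosphorylation call. Among 34 named genes with a fold change, 9 changed sign in at least 1 alternative, none of them called (Atp5g2, Atp5g3, Cox6b1, Cox6b2, Cox7a1, Cox7a2l, Ndufa4, Ndufb10 and Uqcrc1). The cause of these changes was not tested. Differences smaller than the intervals given were not detectable with 4 libraries a group. Some genes share reads with others: 61 overlap a gene on the opposite strand and 9 one on the same strand, and 18 pseudogenes in the table carry names of this family, 8 of them averaging at least 10 normalized counts.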

Other observations

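The ribosomal proteins offer a set of other nuclear housekeeping genes, many with short transcripts. Of 79 tested cytosolic ribosomal protein genes 0 were called, with a median log2 fold change of 0.03, and of 77 tested mitochondrial ribosomal protein genes 0 were called, with a median of -0.02 (DESeq2). The median centred log2 level of the cytosolic set was -0.13, -0.03, 0.11 and 0.09 in L192P replicates 1 to 4 and between -0.03 and -0.0034 in WT, so L192P replicate 1 was the lowest library for these genes as well. At an unadjusted p under 0.05 there was 1 cytosolic gene with higher values in L192P and there were 2 mitochondrial ribosomal genes with lower values.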
